A study of Mus musculus with 4 samples.

Results

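The Slam family receptor genes examined here were Slamf1, Cd48, Slamf6, Slamf7, Ly9, Cd84, Slamf8 and Slamf9, all on mouse chromosome 1. ATAC-Seq, which cuts accessible DNA with the Tn5 transposase, had been carried out on sorted bone marrow cells labelled ltHSC (long-term HSCs) in 2 control and 2 KO libraries. The study's text calls the cells of this assay HSPCs, a wider population, and which gate gave these libraries is not stated. The KO cells came from Cpt1a fl/fl mice crossed with Vav1-Cre+ mice, so that Cpt1a, which encodes the carnitine palmitoyltransferase that admits long-chain fatty acids to mitochondria, was deleted across the hematopoietic system. The control cells came from mice whose genotype is labelled WT, which the study's methods describe as Cpt1a fl/fl. All mice were untreated adults on a C57BL/6, CD45.2 background, and the sorted cells of both groups were cryopreserved. The study's methods give both sexes for its mice in general and do not say which sexes gave these libraries. Vav1-Cre acts in all blood lineages and not in HSCs alone, and no label says whether the libraries of a group came from separate mice or pools, so the spread between them may be technical.

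Regions were chosen by position. Peaks of the 4 lists that overlapped a gene body or the 5000 bp on either side of it (mm10) were merged across libraries wherever they shared at least 1 bp. This gave 83 regions of the 337776 merged in the same way over the autosomes and the X chromosome, and no region lay in the windows of more than 1 gene. All 8 genes held regions, from 7 at Cd48 to 14 at Slamf1. The lists give no read counts, so the sequencing depth behind each peak is unknown and no interval for counting error is given. Strength is therefore expressed as a percentile: the rank, from 0 to 100, of the highest fold over background in a region among all merged intervals of the same library.

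Slam family receptors are immunoglobulin-like proteins of blood cells. Most bind their own kind on a neighboring cell, and their tyrosine-based switch motifs recruit the small adaptors SAP and EAT-2, which compete with phosphatases for them. In the bone marrow, CD150 (the product of Slamf1) and CD48 are read together as a code that separates stem cells, which carry CD150 and lack CD48, from the progenitors that follow them, and the gate that the study describes for LT-HSCs used both proteins. The other genes are better known from lymphocytes, NK cells and macrophages.

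The 250 bases upstream of the start are shown for the 4 genes at which peaks near the start are compared below, from RefSeq (GRCm38.p6), of which 7 of the 8 genes had an entry (all but Ly9). Capitals mark matches to short motifs of blood cell factors, searched on both strands. For GATA factors the letters TGATAA and, as a second form, the letters AGATAA were searched. The ETS motif was CCGGAA, the motif of the ETS factor PU.1 was GAGGAA, the RUNX motif was TGTGGT, and the E-box searched was CAGCTG. The sequences run 5′ to 3′ on the + strand from chr1:171766882-171767131 (Slamf1), chr1:171681742-171681991 (Cd48), chr1:171917212-171917461 (Slamf6) and chr1:171839447-171839696 (Cd84).
Slamf1: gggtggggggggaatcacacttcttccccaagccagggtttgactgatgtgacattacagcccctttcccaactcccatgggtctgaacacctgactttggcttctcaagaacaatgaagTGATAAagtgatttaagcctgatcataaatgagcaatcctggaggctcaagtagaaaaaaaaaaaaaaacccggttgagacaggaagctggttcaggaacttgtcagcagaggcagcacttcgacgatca
Cd48: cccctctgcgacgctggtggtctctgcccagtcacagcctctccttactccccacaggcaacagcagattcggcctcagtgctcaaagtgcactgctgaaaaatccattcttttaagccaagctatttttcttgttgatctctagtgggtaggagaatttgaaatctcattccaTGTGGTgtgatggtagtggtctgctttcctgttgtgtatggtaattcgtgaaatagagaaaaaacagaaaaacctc
Slamf6: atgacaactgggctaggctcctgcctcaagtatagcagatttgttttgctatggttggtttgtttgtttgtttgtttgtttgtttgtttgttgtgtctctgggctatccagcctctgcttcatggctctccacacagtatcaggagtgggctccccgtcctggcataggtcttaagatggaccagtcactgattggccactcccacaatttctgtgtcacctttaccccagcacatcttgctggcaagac
Cd84: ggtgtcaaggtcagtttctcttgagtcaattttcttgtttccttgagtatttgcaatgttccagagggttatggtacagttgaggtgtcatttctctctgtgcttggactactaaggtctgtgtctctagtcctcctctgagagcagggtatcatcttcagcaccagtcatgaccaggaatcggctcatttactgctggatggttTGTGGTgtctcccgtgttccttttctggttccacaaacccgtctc
The Slamf1 sequence held TGATAA from base -130, which 8.10% of 26794 promoters of the same length hold. The Cd48 and Cd84 sequences held TGTGGT from base -76 and from base -45, against 14.1% of all promoters, and the Slamf6 sequence held none of the 6 motifs. Among the 3 genes not shown, Slamf7 had none, Slamf8 had CAGCTG from base -55, and Slamf9 had GAGGAA from base -8 and CAGCTG from bases -222 and -168. Of all promoters, 23.3% held GAGGAA and 12.8% held CAGCTG. The 7 promoters had 1 to 6 CpG dinucleotides each against a median of 6 over all promoters, and their GC content was 38.0% to 54.4% against a median of 52.4%.

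Regions with a peak in every library were found at all 8 genes, as they were at 79.7% of 21631 protein-coding genes. Of the 83 regions, 25 had a peak in all 4 libraries, 3 in 3 libraries, 11 in 2 libraries and 44 (53.0%) in 1 library, where 59.3% of all regions in the genome had a peak in 1 library. Among the 39 regions with a peak in 2 or more libraries, 64.1% were in all 4, beside 58.4 percent of all such regions in the genome. The 25 regions included 5 at Slamf9, 4 each at Cd48 and Slamf7, 3 each at Ly9 and Cd84, and 2 each at Slamf1, Slamf6 and Slamf8. Per 10 kb of window this was 1.67 at Slamf9, 1.31 at Slamf7 and 1.18 at Cd48. It was lowest, at similar values, at Cd84 (0.492), Slamf6 (0.482) and Slamf1 (0.454). Of these regions, 17 overlapped the gene body and 8 lay in the flanks alone.

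**Figure D1:**
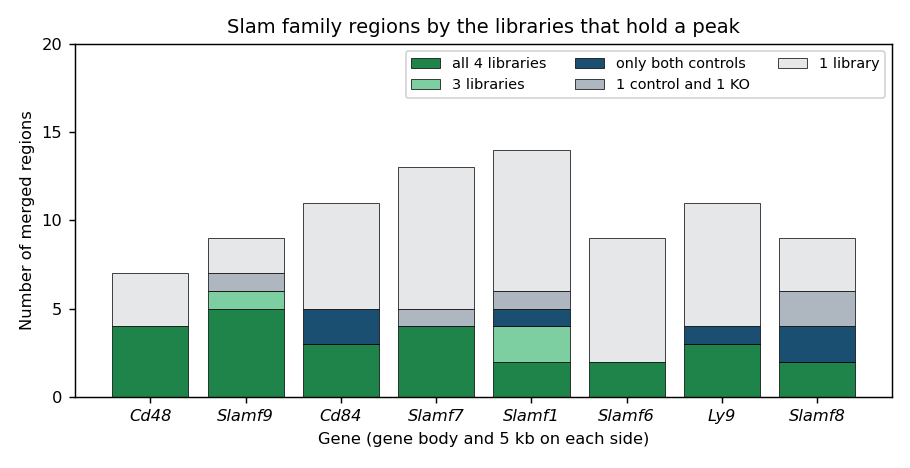
Number of merged regions in the window of each gene (y axis), with genes on the x axis in order of their strongest region and colors giving the libraries that hold a peak. Slamf1 had 14 regions, of which 2 were in all 4 libraries and 8 in 1 library, and Slamf9 had 5 of its 9 in all 4.

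The strongest accessible region of the family lay within Cd48, and 4 of the other genes ranked above Slamf1. CD48 is a GPI-anchored ligand with no cytoplasmic tail that is read by the receptor CD244. Its strongest region, chr1:171698660-171699334, lay inside the gene from 16668 to 17342 bp after the start. The percentiles were 98.7 and 98.3 in control 1 and 2 and 99.4 and 98.8 in KO 1 and 2, at folds of 20.1, 19.1, 21.9 and 19.0. Both KO percentiles were above both control percentiles by a mean of 0.61 points (two-sided exact permutation p = 0.33, n = 2 and 2), while the folds themselves overlapped. With 2 against 2 libraries, 0.33 is the smallest p that this test can give, so no single region can pass 0.05. Among the 17243 protein-coding genes with a region in all 4 libraries, of 21631, 86.7% had a weaker strongest region than Cd48.

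Slamf9 and Cd84 followed Cd48. Slamf9 encodes a receptor of myeloid cells with a short tail and no switch motif, and Cd84 encodes a self-binding receptor of B cells, T cells, platelets and mast cells. The strongest region in the Slamf9 window (chr1:172481200-172482501) had percentiles of 96.7, 96.6, 96.8 and 95.4 in control 1, control 2, KO 1 and KO 2, but it lay past the end of Slamf9 and held the starts of the neighbors Igsf9 and Gm35522. The strongest Cd84 region (chr1:171849412-171849898), 9715 to 10201 bp inside the gene, had 95.1, 93.7, 93.6 and 92.0. Here both KO libraries were below both controls, by a mean difference of -1.65 percentile points (exact permutation p = 0.33), and the folds fell in the same order, from 14.4 and 13.5 in control to 12.3 and 10.6 in KO.

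Slamf7 encodes an activating receptor of NK cells and plasma cells. Its strongest region (chr1:171630978-171631932), just past the last base of the gene, had percentiles of 94.5, 93.9, 94.5 and 91.5. Control and KO overlapped there, and the ranges of the strongest Cd84 and Slamf7 regions over the libraries overlapped too. For Slamf1, the strongest region (chr1:171761664-171762910) lay upstream of the start, from -5468 to -4222 bp, across the edge of the window, and its percentiles were 87.1 and 89.4 in control and 83.5 and 80.7 in KO. It was below the strongest Cd48, Slamf9, Cd84 and Slamf7 regions in every library, and 18.3% of genes had a weaker one.

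Slamf6, Ly9 and Slamf8 had the weakest maxima with the 5000 bp flank. Slamf6 (Ly108) and Ly9 (CD229) are self-binding receptors of T and B cells, and Slamf8 is a receptor of macrophages. The percentiles in the same library order were 80.9, 78.3, 85.4 and 80.8 for Slamf6, 3334 to 4184 bp after its start, and 77.5, 80.1, 69.1 and 79.4 for Ly9, in the flank beyond the higher coordinate of the gene, whose strand was not in the tables used. They were 72.1, 83.4, 72.5 and 71.4 for Slamf8, upstream from -4227 to -4023 bp. Control and KO overlapped in all 3, and neighbors in the order from Slamf1 down to Slamf8 overlapped between libraries. With this flank, the order of the family was thus Cd48, then Slamf9, then Cd84 with Slamf7. Slamf1 to Slamf8 followed in a group whose neighbors were not separated. With a flank of 1000 bp, the strongest Slamf9 region was its start region (92.7 and 92.5 in control, 88.4 and 83.8 in KO), below Cd84 and Slamf7 in every library. That of Slamf1 was then its start region (64.4 and 66.4 in control, 83.2 and 72.1 in KO), below Slamf6 in every library. At the 5000 bp flank, Slamf1 was below Cd84 and Slamf7 in every library and overlapped Slamf6. It was also above Ly9 in every library there, with ranges that did not overlap. At 1000 bp, the strongest Ly9 region (75.7 and 52.7 in control, 81.9 and 62.0 in KO) overlapped the Slamf1 start region and was higher in control 1. A longer gene offers more peaks to choose the strongest from, and the genes ran from 9497 bp (Slamf8) to 51022 bp (Cd84).

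**Figure D2:**
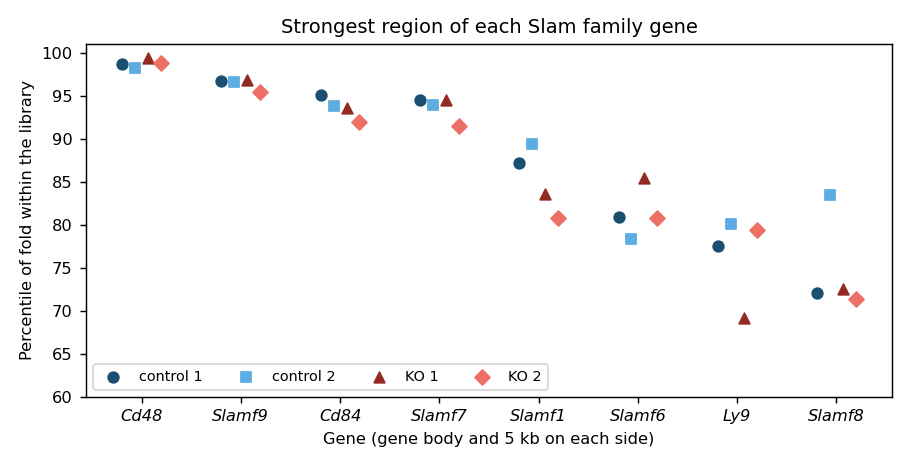
Percentile of fold within the library (y axis, drawn from 60) of the strongest region with a peak in all 4 libraries for each gene (x axis), with 1 point per library. Cd48 lies between 98.3 and 99.4, and Slamf1 lies between 80.7 and 89.4 with both KO libraries below both controls.

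In percentile, the 2 Slamf1 regions held by every library differed in opposite directions between control and KO. The upstream region fell by 6.17 percentile points, from 88.3 ± 1.61 in control to 82.1 ± 1.96 in KO (SD, n = 2 each; exact permutation p = 0.33). Its fold was 9.08 and 10.7 in control and 7.15 and 6.28 in KO. The region over the start (chr1:171767052-171767218, -80 to 86 bp) had percentiles of 64.4 and 66.4 in control and 83.2 and 72.1 in KO, a difference of 12.3 points upward (exact permutation p = 0.33). Neither pair of groups overlapped in percentile. The folds of the start region were 4.21 and 4.78 in control and 7.03 and 4.81 in KO, so KO 2 was close to control 2. Its −log10 q values overlapped (4.77 and 7.30 against 13.5 and 5.05). With only summits that reached a −log10 q of 5, control 1 held no peak there, and KO 2 (8.58) was below control 2 (21.4). With the 100000 strongest summits, KO 2 (19.3) was above control 2 (8.49). Among all 80271 regions of the genome with a peak in all 4 libraries, 9.43% differed by as much upward as the start region and 19.0% by as much downward as the upstream region. The TGATAA of the Slamf1 promoter printed above lay upstream of the start region.

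Farther into Slamf1, peaks were seldom shared, and none was held by all 4 libraries. A region 18850 to 18997 bp after the start (chr1:171785982-171786129) was held by both controls at percentiles of 61.5 and 59.8 and by neither KO library. A pair of regions 21423 to 22130 bp after the start was held by both controls and by KO 1, between 33.8 and 55.9, and not by KO 2. Of the 8 Slamf1 regions held by 1 library, the strongest was held by control 2 alone, at a percentile of 76.8, from 10836 to 11334 bp after the start. The profile of the strongest Slamf1 region over the 4 libraries was closest, by Euclidean distance among 17242 other genes, to those of Hspa12b (1.32 points), Car8 (1.84) and Zfp112 (2.32), and 65 genes lay within 5 points.

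**Figure D3:**
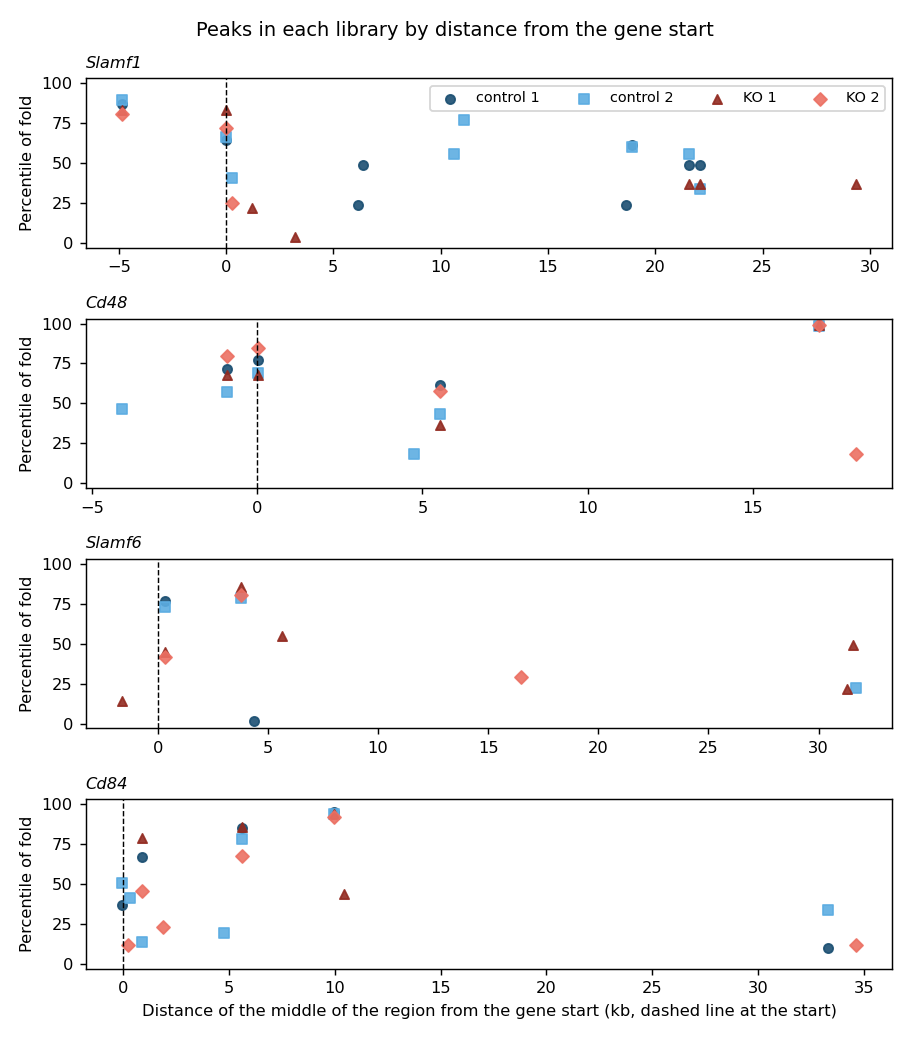
Percentile of fold within the library (y axis) against the distance of the middle of each region from the gene start in kb (x axis, start at the dashed line) for Slamf1, Cd48, Slamf6 and Cd84, with 1 point per library that holds a peak. At Slamf6 the region just after the start is at 77.0 and 72.7 in control and 45.0 and 41.8 in KO, while the next region, near 4 kb, overlaps between the groups.

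Starts were accessible at most of the genes. Of the 7 genes with a start in the promoter table, 5 had it inside a region with a peak in all 4 libraries, beside 61.1 percent of 17251 protein-coding starts. These were Slamf1, Cd48, Slamf7, Slamf8 and Slamf9. Only 1 start per gene was used, and some gene bodies extend upstream of it, most of all at Slamf9 (body from 172458569, start at 172475360). Other starts of these genes were not examined. The Cd48 start region (chr1:171681567-171682462) had percentiles of 77.1, 69.3, 67.6 and 84.5 and included the TGTGGT of the printed promoter. That of Slamf7 had 65.2, 59.8, 75.3 and 57.9, and in both genes control and KO overlapped. That of Slamf8 was at 71.5 in control 1, 71.7 in KO 1 and 68.7 in KO 2 but at 25.2 in control 2, so its groups overlapped as well.

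The strongest of the starts used was that of Slamf9. It had percentiles of 92.7 and 92.5 in control and 88.4 and 83.8 in KO, at folds of 12.2, 12.5, 8.99 and 7.13. KO was below control in both libraries, with a mean difference of -6.44 points (exact permutation p = 0.33), and 18.5% of regions in the genome fell by as much. With the Cd48, Igsf9, Cd84 and Slamf7 regions above, it completed the 5 regions whose weakest library was highest, at 98.3, 95.4, 92.0, 91.5 and 83.8.

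Slamf6 and Cd84 were the genes whose start was not covered in every library. At Slamf6 the nearest region (chr1:171917526-171918022) began 64 bp after the start and also overlapped the predicted gene Gm37065. Its percentiles were 77.0 and 72.7 in control and 45.0 and 41.8 in KO, with folds of 5.97 and 5.74 against 3.19 and 3.25. The groups were apart by far more than the libraries within them, at 74.8 ± 2.99 in control and 43.4 ± 2.33 in KO (SD, n = 2 each), and the percentile fell by 31.4 points (exact permutation p = 0.33). Of all regions with a peak in every library, 1.42% fell by as much. The second Slamf6 region, 3334 to 4184 bp after the start, did not follow it, with a mean 3.47 points higher in KO and overlapping groups (exact permutation p = 0.667).

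At Cd84 the start lay in a region (chr1:171839563-171839750, -134 to 53 bp) held by both controls, at percentiles of 37.2 and 50.8, and by neither KO library. The peak was weak in control too, with folds of 2.92 and 3.56 and −log10 q values of 1.47 and 2.98, and the TGTGGT of the Cd84 promoter lay inside it. When peaks were redrawn as windows of 200 bp on each side of their summits, KO 2 joined the merged region over the Cd84 start, at a percentile of 10.9. The KO 2 peak itself lay 214 to 291 bp after the start, so its own window did not reach the start. Between the start and the strongest region, the Cd84 region 811 to 1001 bp after the start had percentiles of 67.2, 14.1, 79.0 and 45.7, and the one at 5129 to 6073 bp had 84.9, 78.4, 85.9 and 67.5. In both, the spread within a group exceeded the difference between the groups.

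Regions held by both controls and no KO library numbered 6, and regions held by both KO libraries and no control numbered 0. The 6 were 15.4% of the 39 regions in 2 or more libraries, where 6.05 percent of all such regions in the genome were only in control and 3.47 percent were only in KO. Beside the region 18850 bp into Slamf1 and the Cd84 start region, both already described, they were a region inside Ly9 (48.8 and 22.6), a second inside Cd84 (9.86 and 33.8), and at Slamf8 a region inside the gene (53.8 and 40.8) and one upstream (3.17 and 29.0). All were weak, with folds of 2.16 to 4.15. With only summits that reached a −log10 q of 5, or only the 100000 strongest of each library, none of the 6 remained and the Slamf6 region after the start was the 1 region only in control. Both KO libraries held a peak there in the full lists, at −log10 q values of 2.52 and 2.18 against 11.0 and 11.8 in control. Neither KO peak passed the limits, so this call follows from them. The share of all regions only in control is not given at these settings.

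Summits in the windows of the family numbered 73 and 86 in control and 63 and 55 in KO, or 26.3 and 32.8 against 23.7 and 22.8 per 100000 summits of the library. For summits that reached a −log10 q of 5, they numbered 35 and 29 against 23 and 17, or 29.7 and 23.6 against 21.3 and 20.1 per 100000. Both KO libraries were lower on each measure (exact permutation p = 0.33). Across the whole lists, merged intervals were also narrower in KO (medians of 140 and 157 bp against 179 and 183 bp), the covered length was smaller (42.6 and 44.4 Mb against 48.9 and 52.9 Mb), and the share of summits that reached this value was lower (40.5% and 35.1% against 42.5% and 46.8%). The part of these differences between the lists in the results for the Slam genes was not tested.

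In the 25 regions held by every library, some were stronger and some weaker in KO. Their median percentile was 75.7 and 69.3 in control and 75.3 and 71.8 in KO. The median difference, KO minus control, was 0.61 percentile points, against 0.45 over all regions of the genome with a peak in all 4 libraries. It turned to -8.51 among the 10 regions left when summits had to reach a −log10 q of 5. It was -4.38 among the 10 left with the 100000 strongest summits of each library. No median over all regions of the genome is given at these settings, so whether the turn is particular to these genes was not tested. In 4 of the 25 both KO libraries were below both controls, beside 15.1 percent of all regions. In 5 of the 25 they were above, beside 22.2 percent, and in 16 the groups overlapped.

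The 4 lower regions were the Slamf1 upstream region, the strongest Cd84 region, the Slamf6 region after the start and the Slamf9 start. The 5 higher ones were the Slamf1 start, the strongest Cd48 region, a region beyond the higher coordinate of Ly9 (6.22 points), a region past the end of Slamf7 (8.15 points) and a region inside Slamf9. This last one (chr1:172478150-172478283) differed most, with percentiles of 27.8 and 0.628 in control and 52.8 and 50.4 in KO, but its fold was low in every library, from 1.89 to 3.31. The Slamf6 region was the 1 of 25 below the 5th percentile of all differences (-20.2 points), and this Slamf9 region, the Cd84 region 811 bp after the start and the Slamf8 start were above the 95th (18.2 points).

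**Figure D4:**
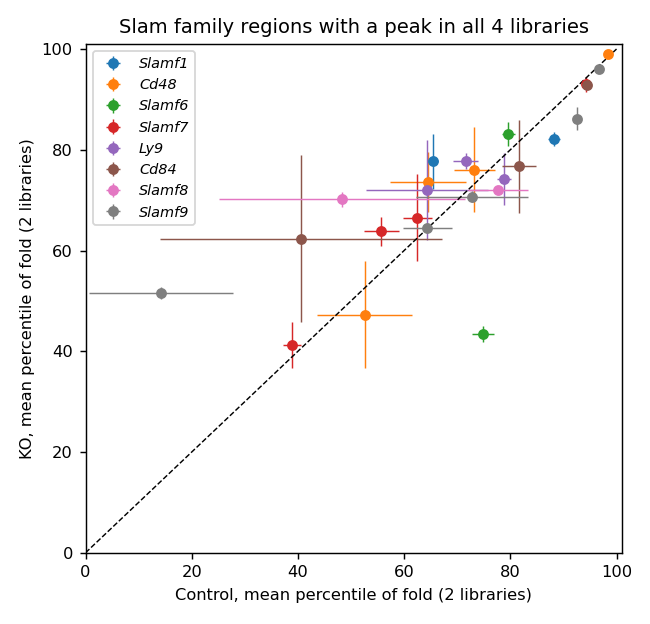
Mean percentile of fold in the 2 KO libraries (y axis) against that in the 2 control libraries (x axis) for the 25 regions with a peak in all 4 libraries, colored by gene, with bars reaching the value of each library and the dashed line marking equality. The Slamf6 region after the start, at 74.8 in control and 43.4 in KO, lies farthest below the line, and the Slamf9 region at 14.2 in control and 51.6 in KO farthest above it.

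Genes for partners of the family were counted in the same way. Of 10 genes for related receptors, adaptors, kinases and phosphatases, 9 had a region with a peak in all 4 libraries, beside 79.7% of all protein-coding genes, and 6 of the 8 with a known start had it covered, beside 61.1 percent of all starts. The median over the genes of their strongest region was 94.0. Sh2d1b2, which encodes an adaptor related to EAT-2, ranked highest at 97.8 to 99.1, and Cd2, a T cell adhesion receptor that binds CD48 in mice, ranked lowest at 61.4 to 86.7. Sh2d1a, the gene of SAP, had no region in all 4 libraries. The windows held 95 regions in 2 or more libraries, of which 10 (10.5%) were only in control, at Cd244a, Cd2, Fyn, Ptpn11 and Inpp5d, and 4 (4.21%) only in KO, at Fyn, Ptpn11 and Inpp5d. The shares over all regions of the genome were 6.05 percent and 3.47 percent. Cd244a, the CD48 receptor and itself a Slam family member, had percentiles of 88.8 and 83.9 in control and 87.6 and 80.7 in KO.

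The labelled cell type was checked with the same measure. All 9 stem cell markers listed (such as Procr, Mecom and Hlf) had a region with a peak in every library, but so did 6 of 6 B cell, 5 of 6 T cell, 2 of 3 NK cell, 4 of 5 myeloid and 3 of 3 erythroid markers, where 79.7% of all protein-coding genes did. The medians of the strongest region were 94.7, 92.3, 92.2, 89.9, 80.8 and 97.4, so this percentile did not set the labelled cell type apart. Starts were covered in all 4 libraries for 6 of 7 stem cell markers, 2 of 3 B cell, 1 of 5 T cell, 1 of 3 NK cell, 2 of 4 myeloid and 0 of 2 erythroid markers with a known start, against 61.1 percent of all starts. Cd8a, Ncr1 and Ly6g had no region in more than 1 library. Cpt1a itself had peaks in every library (strongest region 91.8 to 96.1), and since the deleted exons were not located here, this does not check the genotype labels.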

How the data were processed

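ATAC-Seq peak lists of 2 control and 2 KO libraries, called per library, were used. Per the labels, the authors used Bowtie2 and MACS2 on mm10, and the versions and trimming, duplicate and Tn5 shift settings are not given in the sources used here. The deposited narrowPeak values were a fold over background (a ratio), −log10 p and −log10 q (from p-values and q-values), and a summit position. Reads were not analysed here, so the count test of the study (edgeR) was not run. The lists held 240940 to 277594 summits. Rows sharing an interval were merged to 161992 to 196611 intervals.

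Summits and intervals were read with pandas 2.3.3 and numpy 2.4.6 in Python 3.11.15. A library held a region when a peak overlapped it by 1 bp. Only in control means both controls and no KO library. Percentiles rank the highest fold. Tests were exact two-sided permutations of 2 against 2 libraries (scipy 1.17.1), and the region procedure was tested on simulated data. Gene positions came from RefSeq (GRCm38.p6, the same build as mm10). The text names all 8 genes, their strongest and start regions, every region specific to a genotype, the 5 regions with the highest minimum, signaling genes with a specific region or the highest or lowest percentile, and the 3 genes most like Slamf1. Other regions named were chosen after their values were seen. The genes and lists were chosen with earlier results of these data known. Alternatives were a −log10 q of at least 5, the 100000 strongest summits, lists of equal length, windows of 200 bp, a flank of 1000 bp, a covered share of 0.5, ranks by −log10 q, and leaving out each library.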

Additional observations from a re-analysis of the deposited data

How the results depend on the processing

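The 25 regions with a peak in all 4 libraries became 10 when summits had to reach a −log10 q of 5, 10 with the 100000 strongest summits and 15 when a peak had to cover a share of 0.5 of the region. They numbered 24 to 27 when 1 library was left out. The 6 regions only in control became 1 under each of the first pair of settings. The 1 was the Slamf6 region after the start, where the KO peaks of the full lists fell below the limits. With a covered share of 0.5 the count was 9, including regions at Slamf7, Cd48, Cd84 and Slamf9 that had a peak in all 4 full lists. With lists of equal length it was 5, and 1 of these, at Slamf9, was not among the 6. It was 4 with windows of 200 bp and 5 with a flank of 1000 bp. Leaving out 1 library gave 6 to 19 (19 without control 1 and 13 without control 2), since 1 control library then sufficed. The 0 regions only in KO became 1, at Ly9, with windows of 200 bp, and 0 to 16 when 1 library was left out (16 without KO 1 and 10 without KO 2), for the same reason of construction. The median difference of 0.61 percentile points became -8.51 with the −log10 q limit and -4.38 with the 100000 strongest summits, and was -1.27 to 4.07 when 1 library was left out. Each of these limits leaves 10 regions, no median over all regions of the genome is given beside them, and the cause of the change was not tested. With a flank of 1000 bp, the strongest Slamf1 region was the start region, whose difference was 12.3 in place of -6.17. The strongest region also changed at Slamf8 (21.85 in place of -5.78), Ly9 (7.72 in place of -4.55) and Slamf9 (-6.44 in place of -0.53). Of 79 recomputed differences of the strongest regions of single genes, 59 moved by no more than the SD between replicate libraries of that gene's own strongest region, pooled over control and KO, so the tolerance differs between genes. No paired analysis was possible because no label ties the replicate numbers of control and KO to a shared litter, day or batch, and the counts of presence come from no test. Depth is unknown, and 44 of the 83 regions rest on 1 library.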
